A study of Mus musculus with 4 samples.

Results

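The 10 genes of the cytosolic heat shock system described here were followed in mouse embryonic stem cell-derived cardiomyocytes, chosen by name and located through the RefSeq accession that the array gives for each probe. They were 5 genes of the muscle small heat shock group (Hspb1, Hspb7, Hspb8, Cryab and their partner Bag3), 3 inducible genes (Hspa1a, Hspa1b and Hsph1) and 2 genes grouped as constitutive (Hspa8 and Hsp90aa1), of which Hsp90aa1 is also stress-responsive and so fits that name only in part. Probes were found for 9 of the 10 genes, 13 probes among the 39429 on the array, and all 9 genes were bright enough to be tested among 20918 features. No probe carried an accession of Hspa1b, so this gene has no value of its own. The cells came from CGR8, an embryonic stem cell line, and were transfected for 48 hours in medium with 2% serum, 2 samples (siErbB4) with a small interfering RNA against the receptor gene Erbb4 and 2 samples (siScr) with a scrambled RNA. The differentiated cultures were profiled as bulk RNA, 1 sample per 1-colour Agilent array, with all 4 arrays on 1 slide. The labels do not state whether the replicates were independent cultures, and the p-values therefore reflect the spread among these 4 samples alone, which may be technical. The labels conflict in places, since the descriptions of the siErbB4 samples give the scrambled RNA and 1 of their source names (replicate 2) gives ErbB5, so the groups rest on the titles and the transfection field. The growth protocol gives 2 possible incubation times and does not assign them to samples.

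Heat shock proteins are molecular chaperones. Small heat shock proteins hold unfolding proteins in a soluble state without using ATP, and the HSP70 machines, helped by HSP40 and HSP110 partners, refold those proteins or pass them to HSP90 or to degradation. Heart muscle is rich in small heat shock proteins, which bind desmin, titin and filamin and protect the contractile filaments, while the heat shock factor HSF1 drives the inducible genes by binding repeats of the motif GAA and its complement, the heat shock element.

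Promoter sequences are shown for what precedes the start sites of these genes. RefSeq promoters (build GRCm38.p6) were at hand for 7 of the 10 genes, but not for Cryab, Hspa8 or Hsp90aa1. The 250 bases before the start site were searched on both strands for a pair of facing repeats, GAANNTTC or TTCNNGAA. Such a pair was found in 4 of the 7 genes, Hspa1a, Hspa1b, Hsph1 and Hspb1, and in 12.9% of 32536 distinct promoter windows of the same length. Among these 4, Hspa1a and Hspa1b have near-identical windows and are not separate cases. Hspb1 belongs to the muscle class, so the pair did not divide the genes by class. Hspb1 held 2 pairs, and 1.46% of all windows held 2 or more. No window of these genes held 3 repeats in a row (GAANNTTCNNGAA or its reverse complement, which contain the pair), a run present in 0.470% of all windows. The absence of these letters from the windows of Hspb7, Hspb8 and Bag3 says nothing about factors that bind there. Shown are the last 150 bases before the start site of each gene with a pair, which is in capitals, and of Hspb7 for comparison, read 5′ to 3′ on the strand of the gene.
Hspa1a: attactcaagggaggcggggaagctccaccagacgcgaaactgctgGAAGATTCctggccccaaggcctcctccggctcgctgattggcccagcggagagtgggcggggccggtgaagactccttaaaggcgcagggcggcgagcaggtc
Hspa1b: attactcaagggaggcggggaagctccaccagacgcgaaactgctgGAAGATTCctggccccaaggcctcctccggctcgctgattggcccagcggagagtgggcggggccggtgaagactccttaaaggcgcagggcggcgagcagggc
Hsph1: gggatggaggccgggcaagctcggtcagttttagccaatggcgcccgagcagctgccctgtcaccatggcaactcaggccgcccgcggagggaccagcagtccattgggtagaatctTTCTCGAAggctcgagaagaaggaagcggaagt
Hspb1: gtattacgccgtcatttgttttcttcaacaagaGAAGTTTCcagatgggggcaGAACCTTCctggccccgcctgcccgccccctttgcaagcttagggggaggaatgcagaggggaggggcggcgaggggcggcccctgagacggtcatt
Hspb7: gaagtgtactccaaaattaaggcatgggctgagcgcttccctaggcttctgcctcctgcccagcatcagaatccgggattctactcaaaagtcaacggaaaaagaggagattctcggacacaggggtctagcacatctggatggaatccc
These stretches lie at chr17:34972157-34972306 (minus strand), chr17:34959239-34959388 (minus strand), chr5:149636337-149636486 (minus strand, 1 of its 2 listed start sites), chr5:135887769-135887918 (plus strand) and chr4:141420629-141420778 (plus strand). The pair began 104 bases before the start site in both Hspa1a and Hspa1b, 33 bases before it in Hsph1, and 117 and 97 bases before it in Hspb1. The Hspa1a and Hspa1b windows had the same base at 149 of the 150 positions and at 247 of all 250. These windows lie before the start site, so their likeness does not show what the Hspa1a probe reads, and no probe or transcript sequences were compared. Because the 2 genes are near-identical copies, the Hspa1a probe may also read Hspa1b transcripts. Its values below are uncertain in that sense.

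The processed signal at the 75th percentile lay between 878 and 989 across the arrays, 64.8% to 68.5% of probes were well above background, and no spot was saturated. Values below are log2 processed signals minus the 75th percentile of the same array (log2 scaled signal), in which 0 is the level of a probe at that percentile. The brightness of different probes is not comparable, so genes are compared by their differences between arrays and not by their levels. The knockdown target could not be checked. The 1 named Erbb4 probe read a signal of 15.0 in siErbB4 replicate 2 and 2.83 in siErbB4 replicate 1, against 11.9 in siScr replicate 2 and 9.02 in siScr replicate 1, and only siErbB4 replicate 2 exceeded the background clearly. Precision is limited throughout by the small number of arrays. The main limma fit between transfections held no term for the replicate number, since the labels name no pairing. Differences between replicate numbers therefore add to the standard errors (SE) and intervals given for it. With such a term the limma SE was 0.12 against 0.17 at Hspb7, and 0.12 against 0.13 at Hspb1.

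The heat shock genes differed little between siErbB4 and siScr cells. Their log2 differences (siErbB4 minus siScr) ran from -0.25 at Hspb8 to 0.22 at Hsp90aa1, with a median of -0.04 over the 9 genes and of -0.01 over all features. None of the 9 genes was called by limma at a Benjamini-Hochberg adjusted p under 0.05, beside 0.0% of all 20918 features, and the adjusted p was 1.00 for each. An unadjusted limma p under 0.05 was found at 0 of the 9 genes, beside 1.79% of all features. The siErbB4 arrays lay below the siScr arrays at 7 of the 9 genes by their mean, beside 52.9% of all features, and above them at 2, beside 47.1% of all features. The arrays of the 2 groups did not overlap at 1 of the 9 genes, Hspb8, beside 29.0% of all features, or 15.9% counting only those lower in siErbB4. With 2 arrays on each side, 0.333 is the smallest two-sided p of an exact permutation test.

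**Figure D1:**
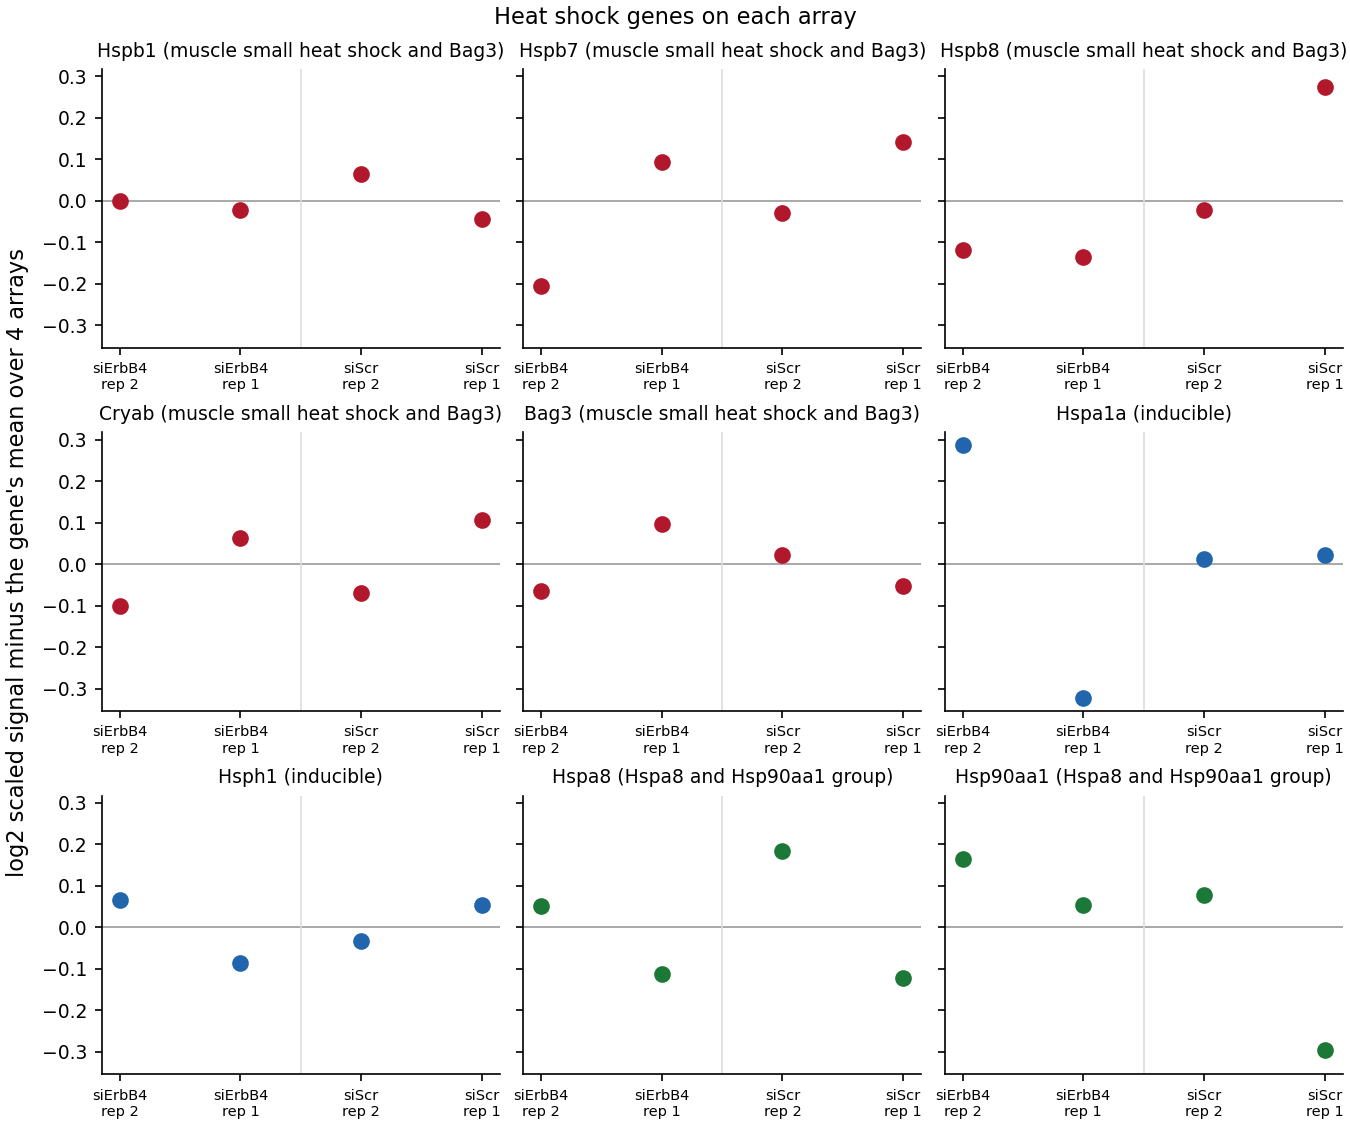
Log2 scaled signal of each of the 9 measured heat shock genes on each array, minus the mean of that gene over the 4 arrays (points are single arrays; red marks the muscle small heat shock genes and Bag3, blue the inducible genes, green Hspa8 and Hsp90aa1). Hspb8 is the only gene whose siErbB4 arrays both lie below both siScr arrays, while Hspb7 and Cryab are lower on both replicate 2 arrays and Hspa8 and Hsp90aa1 are higher on them.

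Among the small heat shock genes, Hspb8, whose product works with BAG3 to route damaged filament proteins to autophagy, read 2.53 and 2.51 in siErbB4 replicates 2 and 1, against 2.63 and 2.92 in siScr replicates 2 and 1. Both siErbB4 values lay below both siScr values, but the gap to siScr replicate 2 was small and siScr replicate 1 stood above the other 3 arrays. The difference was -0.25 (limma SE 0.16, 95% interval -0.70 to 0.20, adjusted p 1.00), and it was -0.10 without siScr replicate 1. Bag3, the co-chaperone that joins HSP70 to small heat shock proteins, read 2.74 and 2.90 in siErbB4 replicates 2 and 1, against 2.82 and 2.75 in siScr replicates 2 and 1, so the groups overlapped. Its difference was 0.03 (limma SE 0.14, 95% interval -0.36 to 0.42), which leaves room for a level between 0.781 and 1.34 times that of siScr cells.

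Hspb7, a small heat shock gene of heart and skeletal muscle that acts in thin filament assembly, read 3.50 and 3.80 in siErbB4 replicates 2 and 1, against 3.67 and 3.84 in siScr replicates 2 and 1. The groups overlapped, and on both sides the replicate 2 array was the lower one. Its difference between transfections was -0.11 (limma SE 0.17, 95% interval -0.59 to 0.37). Cryab, which encodes the desmin chaperone alpha B-crystallin, read 6.70 and 6.86 in siErbB4 replicates 2 and 1, against 6.73 and 6.91 in siScr replicates 2 and 1, the same order as Hspb7. Its difference was -0.04 (limma SE 0.15, 95% interval -0.46 to 0.38) from the brighter of 2 probes and -0.08 from the other, and it was 0.03 with quantile normalization. Hspb1, which encodes HSP27, a protector of actin filaments, had the narrowest range of the 9 genes over the 4 arrays, 0.11. It read 7.35 and 7.33 in siErbB4 replicates 2 and 1, against 7.42 and 7.31 in siScr replicates 2 and 1, a difference of -0.02 (limma SE 0.13, 95% interval -0.38 to 0.34), which was 0.06 with quantile normalization.

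Of the inducible genes, Hspa1a, which encodes the stress-induced HSP70, was well above background on all 4 arrays but below the 75th percentile of each. It read -1.92 and -2.53 in siErbB4 replicates 2 and 1, against -2.20 and -2.19 in siScr replicates 2 and 1. The 2 siErbB4 arrays lay on either side of the siScr pair, while the siScr arrays nearly coincided, with a replicate difference of -0.0095. The difference was -0.04 (limma SE 0.25, 95% interval -0.72 to 0.65), and it was 0.27 without siErbB4 replicate 1 and -0.34 without siErbB4 replicate 2. Hsph1, the HSP110 nucleotide exchange factor, read 1.83 and 1.68 in siErbB4 replicates 2 and 1, against 1.73 and 1.82 in siScr replicates 2 and 1, with a difference of -0.02 (limma SE 0.14, 95% interval -0.41 to 0.37). Its 2 probes gave -0.02 and 0.03.

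In the remaining pair, Hspa8, the housekeeping HSC70, read 6.51 and 6.34 in siErbB4 replicates 2 and 1, against 6.64 and 6.34 in siScr replicates 2 and 1. The difference was -0.06 (limma SE 0.18, 95% interval -0.55 to 0.42) from the brightest of 3 probes, which all gave values between -0.08 and -0.03, and it was 0.0078 with quantile normalization. Hsp90aa1, the gene of HSP90 alpha, the stress-responsive HSP90 form, read 5.20 and 5.09 in siErbB4 replicates 2 and 1, against 5.12 and 4.74 in siScr replicates 2 and 1. Its siScr replicate 1 value lay below the other 3 arrays, the array on which Hspb8 stood above the others. The difference was 0.22 (limma SE 0.19, 95% interval -0.30 to 0.73, adjusted p 1.00), and 0.03 without siScr replicate 1.

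Between the replicate numbers, the classes of heat shock genes had medians of opposite sign when averaged over both transfections. Hspb7 and Cryab were lower, and Hspa8, Hsp90aa1 and Hspb1 were higher, on both replicate 2 arrays than on both replicate 1 arrays, but none of these differences passed the test. The median log2 difference (replicate 2 minus replicate 1) was -0.14 over the 5 muscle small heat shock genes, against 0.02 over all features. It was 0.17 over the 2 measured inducible genes and 0.24 over Hspa8 and Hsp90aa1. Within siErbB4 these medians were -0.16, 0.38 and 0.14 in the same order, and within siScr -0.17, -0.05 and 0.34. The inducible median was thus above 0 within siErbB4 only. With 1 array left out the muscle median ran from -0.19 to -0.09, the inducible from 0.045 to 0.29 and that of Hspa8 and Hsp90aa1 from 0.15 to 0.33, and the last was 0.14 with quantile normalization. By the mean of both transfections, 4 of the 5 muscle genes were lower in replicate 2, beside 47.0% of all features. The other 4 measured genes were all higher by that mean, beside 53.0% of all features. Replicate numbers come from the sample titles. The 2 replicate 2 arrays held positions 1 and 2 of the slide and the 2 replicate 1 arrays positions 3 and 4, so number and position cannot be told apart.

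**Figure D2:**
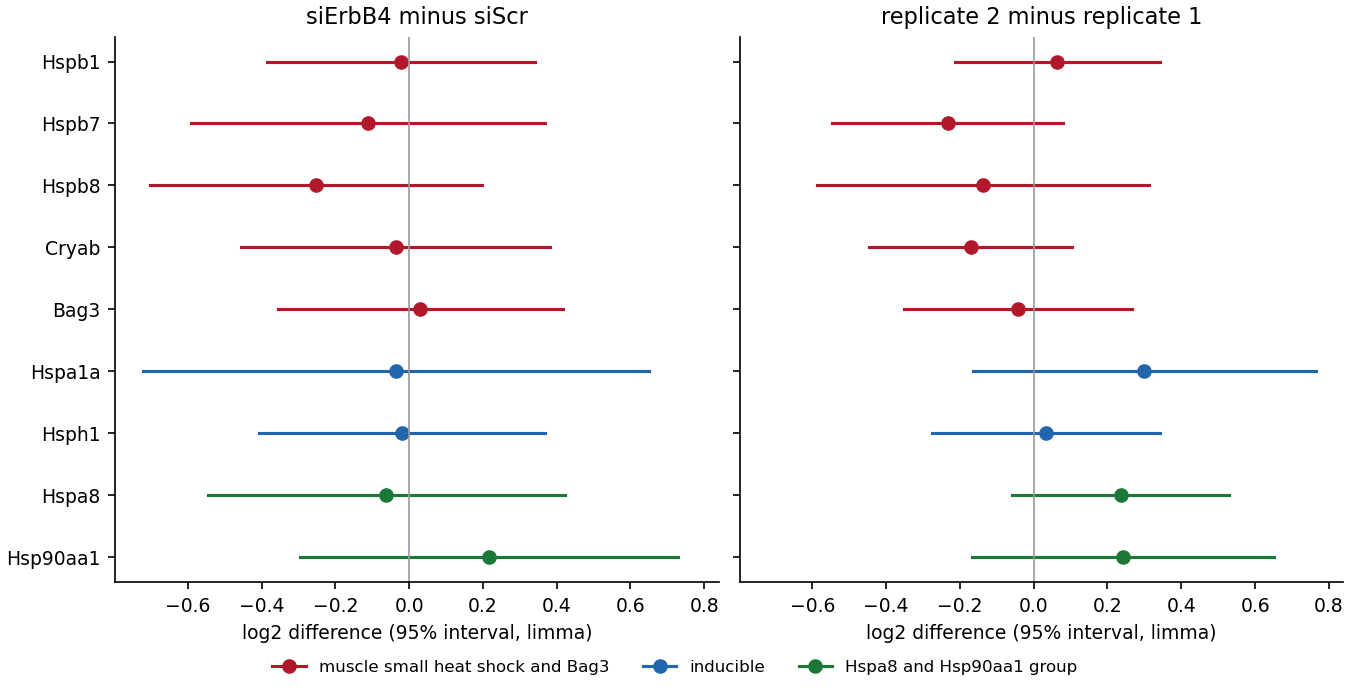
Log2 differences of the 9 measured heat shock genes between transfections (left, siErbB4 minus siScr) and between replicate numbers (right, replicate 2 minus replicate 1), with the 95% interval of limma's estimate from 4 arrays. Every interval includes 0, and on the right the muscle genes run from -0.23 to 0.06 and the others from 0.03 to 0.30.

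By limma, 0 of the 9 genes was called between the replicate numbers at an adjusted p under 0.05, beside 5.16% of all features (1079 of 20918), and 0 had an unadjusted p under 0.05, beside 23.0% of all features. The Benjamini-Hochberg adjusted limma p of the 9 genes ran from 0.301 at Hspa8 to 0.902 at Hsph1. The arrays of the 2 numbers did not overlap at 5 of the 9 genes, beside 55.5% of all features, so that share was near the background. Of the 5, 3 were higher in replicate 2, beside 29.4% of all features, and 2 were lower, beside 26.0% of all features. The difference between replicate numbers was larger in size than that between transfections at 8 of the 9 genes, Hspb8 being the exception, and at 63.0% of all features. The median size of the replicate difference was 0.17 over the 9 genes and 0.19 over all features. The count over all features changed when an array was left out. It was 0 without siScr replicate 1, 0 without siScr replicate 2, 68 without siErbB4 replicate 2 and 1551 without siErbB4 replicate 1, and the counts at an unadjusted p under 0.05 were 5313, 2705, 2908 and 6519 in that order, against 4811 with all 4 arrays.

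The Hspb7 difference was -0.23 (limma SE 0.12, 95% interval -0.55 to 0.08, adjusted p 0.331), made of -0.30 within siErbB4 and -0.17 within siScr. Cryab gave -0.17 (limma SE 0.11, adjusted p 0.410), with -0.16 within siErbB4 and -0.18 within siScr, while its dimmer probe gave -0.04. Both genes were lower in replicate 2 on each side of the transfection. Hspb8 gave -0.14 (limma SE 0.17), made of 0.02 within siErbB4 and -0.29 within siScr. Bag3 gave -0.04 (limma SE 0.12), with -0.16 within siErbB4 and 0.07 within siScr, so its sign differed between the transfections. Hspb1 gave 0.06 (limma SE 0.11), and -0.03 with quantile normalization and -0.04 with normexp background correction, so its direction depended on these settings.

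Hspa8 gave 0.24 (limma SE 0.11, 95% interval -0.06 to 0.53, adjusted p 0.301), with 0.17 within siErbB4 and 0.31 within siScr. Its other 2 probes gave 0.13 and 0.04, so the 3 probes shared a sign and not a size. Hsp90aa1 gave 0.24 (limma SE 0.16, adjusted p 0.433), with 0.11 within siErbB4 and 0.37 within siScr, and it was 0.067 without siScr replicate 1 and 0.42 without siErbB4 replicate 1. Hspa8 and Hsp90aa1 were thus higher in replicate 2 on each side. Hsp90ab1, the constitutive HSP90 gene and named after its values were seen, gave 0.01 (limma SE 0.10). Hspa1a gave 0.30 (limma SE 0.18, adjusted p 0.392), which was 0.61 within siErbB4 and -0.0095 within siScr. A difference of 1.5-fold or more within siErbB4 was found at 1 of the 9 genes, Hspa1a, beside 14.4% of all features (7.49% counting only those higher in replicate 2), and within siScr at 0, beside 18.3% of all features (9.21% higher). Hsph1 gave 0.03 (limma SE 0.12), with 0.15 within siErbB4 and -0.09 within siScr.

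**Figure D3:**
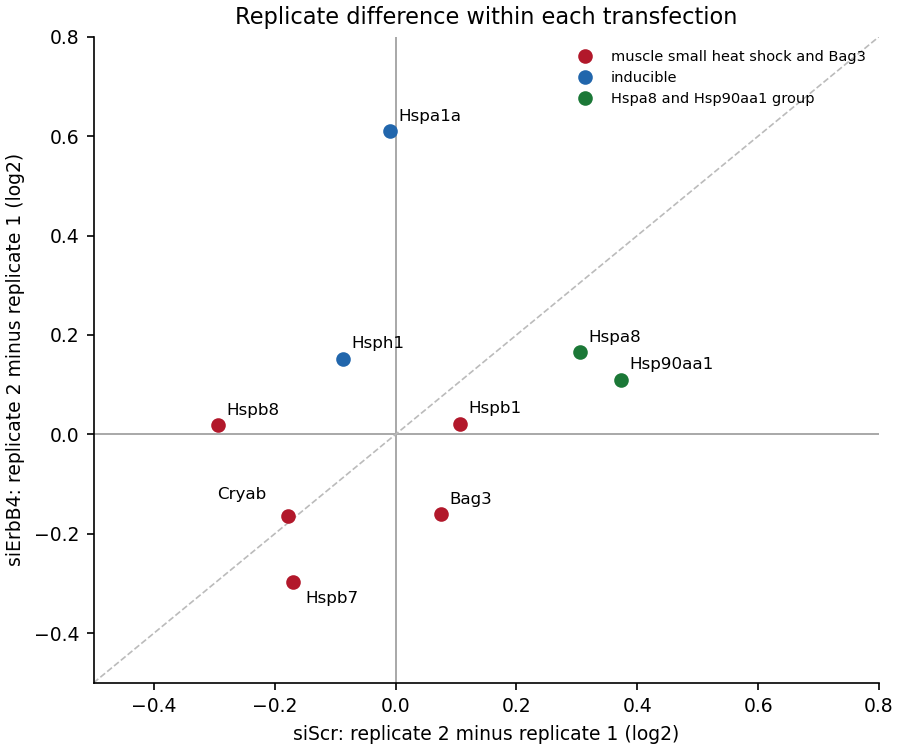
Replicate 2 minus replicate 1 of each measured heat shock gene within siErbB4 (vertical axis) against that within siScr (horizontal axis), in log2 units, each from 1 array against 1, with the dashed line at equal values. Cryab and Hspb7 fall in the lower left, Hspb1, Hspa8 and Hsp90aa1 in the upper right, and Hspa1a stands at 0.61 within siErbB4 and -0.0095 within siScr.

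The mean of the muscle genes, each centred on its own mean over the 4 arrays, minus that of the other 4 genes gives the balance of the classes on each array. It was -0.24 on siErbB4 replicate 2 and 0.14 on siErbB4 replicate 1, against -0.07 on siScr replicate 2 and 0.17 on siScr replicate 1. The muscle side was thus lower on both replicate 2 arrays and higher on both replicate 1 arrays. Because every gene is centred over the same 4 arrays, low values on some arrays require high values on others. Among the other 4 genes, Hspa1a had the centred values 0.29 on siErbB4 replicate 2 and -0.32 on siErbB4 replicate 1. The balance restates the class differences given above and carries no test, since the genes and classes were chosen with results of these arrays known.

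Hspb7 allowed a direct view of the spread between spots within an array, because its probe was printed 10 times on every array. The processed signal, not scaled between arrays, averaged 10600.5 ± 225 in siErbB4 replicate 2 and 13105 ± 335 in siErbB4 replicate 1. In siScr it averaged 11206 ± 217 in replicate 2 and 14206 ± 410 in replicate 1 (SD over 10 spots of 1 array). The 75th percentile also differed between these siScr arrays, at 878 in replicate 2 and 989 in replicate 1. After scaling, the log2 replicate difference was -0.30 within siErbB4 and -0.17 within siScr. The coefficient of variation between spots was 1.94% to 2.88%. On the log2 scaled scale the spots of replicate 2 reached at most 3.55 in siErbB4 and 3.72 in siScr, while those of replicate 1 reached down to 3.75 in siErbB4 and 3.79 in siScr, so within each transfection the spots of the 2 arrays did not overlap. Spots of 1 array share 1 RNA sample and are no replicates of the cells, and their spread leaves out any error of measurement between arrays. Among the 291 tested probes printed 10 times, the median spot SD was 0.05 in log2 units, and the median size of the difference between replicate numbers was 0.20, near the 0.23 of Hspb7.

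**Figure D4:**
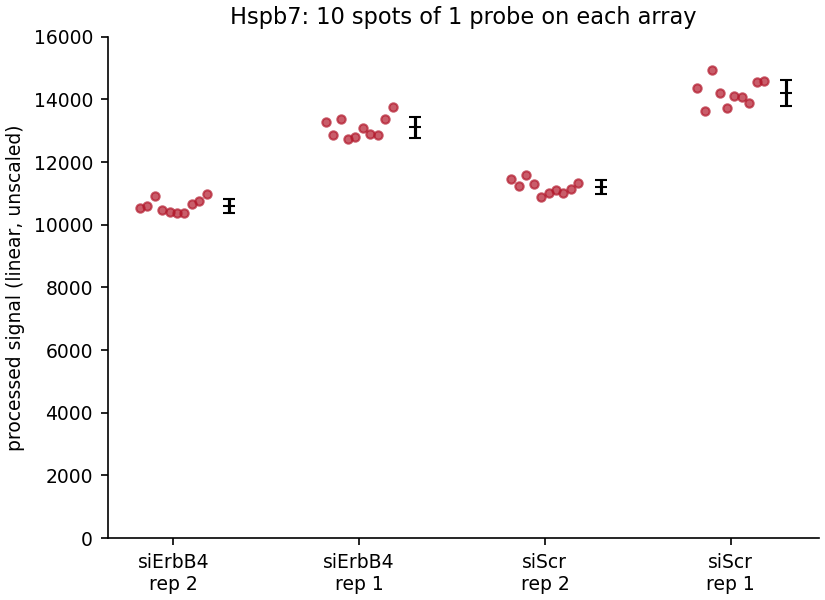
Processed signal (linear and not scaled between arrays) of the 10 spots of the Hspb7 probe on each array, with the mean and SD over spots drawn beside them in black. The replicate 2 spots average 10600.5 in siErbB4 and 11206 in siScr, below the replicate 1 spots, which average 13105 in siErbB4 and 14206 in siScr.

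Among the other small heat shock genes, Hspb2, a muscle gene, gave the opposite sign to Cryab, although the RefSeq models of these genes overlap on chromosome 9. Hspb2 read 5.75 and 5.17 in siErbB4 replicates 2 and 1, against 5.74 and 5.05 in siScr replicates 2 and 1. Both replicate 2 arrays lay above both replicate 1 arrays, and the replicate difference of 0.64 (limma SE 0.11) had an adjusted p of 0.0511 and of 0.0103 with normexp background correction. Between transfections it gave 0.06 (limma SE 0.34). Hspb3, another muscle member chosen after its values were seen, gave 0.41 (limma SE 0.14, adjusted p 0.189) between replicate numbers. The lens gene Cryaa gave the lowest p of the list between transfections, 0.95 (limma SE 0.55, adjusted p 1.00), from signals of 57.2 and 147 in siErbB4 replicates 2 and 1, against 34.8 and 63.7 in siScr replicates 2 and 1. It was 0.27 without siErbB4 replicate 1, 1.63 without siErbB4 replicate 2 and 0.49 with normexp background correction. Of 7 listed genes of this family 6 were tested, 3 higher and 3 lower in each comparison, and none was called by limma.

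The other 7 lists held the rest of the pathway. Over all 8 lists, 63 of 65 genes were tested, with a median of -0.0017 between transfections and 0.04 between replicate numbers. Between transfections 0 of the 63 genes was called by limma and 0 had an unadjusted p under 0.05, and between replicate numbers 1 was called lower, beside 2.29% of all features, and 0 higher, beside 2.86% of all features. Between transfections 14 of the 63 genes lay without overlap above siScr, beside 13.1% of all features, and 12 below, beside 15.9% of all features. The called gene was Synpo2, which encodes an actin-binding partner of BAG3 and is strong in smooth muscle. It read -2.58 and -0.11 in siErbB4 replicates 2 and 1, against -2.52 and -0.54 in siScr replicates 2 and 1, a replicate difference of -2.23 (limma SE 0.18, adjusted p 0.0190). Its 3 probes disagreed, the other 2 giving -1.38 and 0.34, and the mean of the probes gave -1.09 with an adjusted limma p of 0.0546. With 1 array left out the difference ran from -2.44 to -2.01, and the adjusted limma p was 0.0539 without siErbB4 replicate 2, 0.0507 without siScr replicate 1 and 0.0573 without siScr replicate 2.

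No gene of the machinery around HSP70 was called in either comparison. The other HSP70 and HSP110 genes had medians of 0.05 between transfections and 0.16 between replicate numbers over 7 genes, with Hspa14 at 0.16 (limma SE 0.15, and 0.047 without siScr replicate 1) between transfections and Hspa4l at 0.42 (limma SE 0.11, adjusted p 0.108) between replicate numbers. Hspa1l, the neighbour of Hspa1a on chromosome 17 and named after its values were seen, read -2.54 and -4.00 in siErbB4 replicates 2 and 1, against -2.94 and -3.23 in siScr replicates 2 and 1. As at Hspa1a, the highest and the lowest value were those of the siErbB4 arrays. The HSP40 genes, which feed substrates to HSP70, had medians of 0.13 and 0.04 in the same order of comparisons over 9 genes. Of these, Dnajb6 gave 0.22 (limma SE 0.15) between transfections and Dnaja4 gave 0.23 (limma SE 0.13) between replicate numbers. The exchange factors and the ubiquitin ligase of HSP70 had medians of -0.08 and 0.02 over 7 genes, with that ligase gene, Stub1, at -0.24 (limma SE 0.16, and -0.12 without siErbB4 replicate 1) between transfections and Hspbp1 at -0.29 (limma SE 0.17, and -0.089 without siScr replicate 1) between replicate numbers.

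For HSP90 and its partners the medians were 0.02 between transfections and 0.09 between replicate numbers over 13 genes. Ptges3, the p23 co-chaperone, gave 0.20 (limma SE 0.13) between transfections, and Smyd1, a muscle methyltransferase that works with HSP90 in myosin assembly, gave 0.45 (limma SE 0.11, adjusted p 0.0970) between replicate numbers. The list of heat shock factors, which also holds Hsbp1, the gene of a protein that binds HSF1, had medians of -0.10 and -0.14 in the same order over 4 genes, with Hsf2 at 0.25 (limma SE 0.26, and -0.04 without siScr replicate 1) between transfections and Hsf4 at -0.65 (limma SE 0.12, adjusted p 0.0538) between replicate numbers. The Hsf4 probe was dim, with signals of 13.1 and 12.8 on the replicate 2 arrays of siErbB4 and siScr, against 20.1 and 23.3 on the replicate 1 arrays, and with normexp background correction the difference was -0.0046. Hsf1, the main driver of the inducible genes and named after its values were seen, gave -0.12 (limma SE 0.15) between transfections and -0.12 (limma SE 0.13) between replicate numbers. Chaperonin and mitochondrial chaperone genes had medians of -0.0036 and 0.04 over 12 genes, with Trap1 at -0.28 (limma SE 0.21, and -0.048 without siErbB4 replicate 1) between transfections and Hspa9 at 0.33 (limma SE 0.14) between replicate numbers. The partners of BAG3 had medians of 0.0071 and -0.12 over 5 genes, and Flnc, the filamin that BAG3 and HSPB8 help to turn over and named after its values were seen, gave 0.0071 (limma SE 0.13) and 0.05 (limma SE 0.10) in that order.

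**Figure D5:**
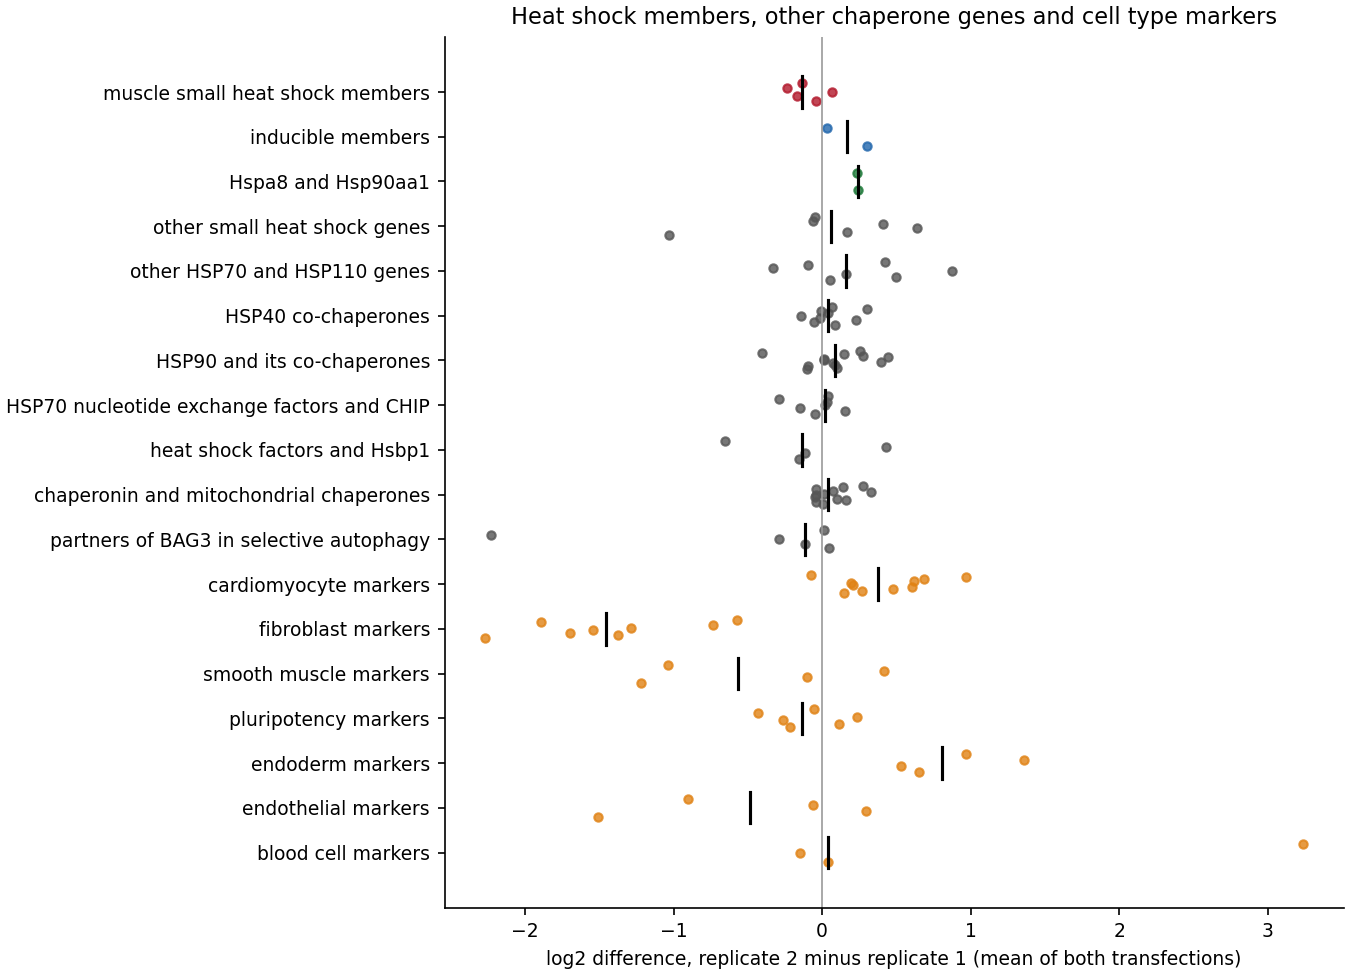
Log2 difference between replicate numbers (replicate 2 minus replicate 1) of each tested gene of the heat shock classes (red, blue, green), the other chaperone lists (grey) and the cell type markers (orange), with the median of each list as a black bar. The heat shock classes lie within 0.30 of 0, while the fibroblast markers have a median of -1.46, the endoderm markers of 0.81 and the cardiomyocyte markers of 0.37.

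Of the cell type markers, mainly the cardiomyocyte, fibroblast, smooth muscle and endoderm lists moved with the replicate numbers beside these genes. All 10 cardiomyocyte markers were well above background on all 4 arrays, while 0 of 5 skeletal muscle markers passed the filter. The tested fibroblast (8), pluripotency (6), smooth muscle (4), endoderm (4), endothelial (4) and blood cell (3) markers were also well above background on all 4. Detection alone therefore does not single out cardiomyocytes. Cardiomyocyte markers were higher in replicate 2 at 9 of 10 genes, beside 53.0% of all features, with a median of 0.37. Of the 10, 2 were called higher by limma, beside 2.86% of all features. Their summed signal, in multiples of the 75th percentile, was 1906 and 2056 on the replicate 2 arrays of siErbB4 and siScr, against 1641 and 1668 on the replicate 1 arrays of siErbB4 and siScr. Actc1, the brightest, gave 0.15 (limma SE 0.11). The small heat shock genes were mixed in sign beside them. Hspb7 (-0.23) and Cryab (-0.17, and -0.04 from its dimmer probe) had the opposite sign to most cardiomyocyte markers. Hspb2 (0.64) and Hspb3 (0.41) had the same sign as most of them. In all, 4 of the 5 muscle class genes and 3 of the 6 other small heat shock genes were lower in replicate 2.

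Fibroblast markers were lower in replicate 2 at 8 of 8 genes, beside 47.0% of all features, and 3 were called lower by limma, beside 2.29% of all features. Their median was -1.46, with -2.27 (limma SE 0.29, adjusted p 0.0303) at Col1a1. Their summed signal was 6.83 and 8.87 on the replicate 2 arrays of siErbB4 and siScr, against 22.4 and 38.6 on the replicate 1 arrays. Smooth muscle markers were lower at 3 of 4 tested genes, 2 of them called lower, against the same shares, with -1.22 (limma SE 0.16, adjusted p 0.0311) at Acta2, and summed to 241 and 248 against 429 and 541 in the same order. Endoderm markers were higher at 4 of 4 tested genes, beside 53.0% of all features, with 0.65 (limma SE 0.11, adjusted p 0.0465) at Afp, and summed to 8.35 and 8.01 against 5.24 and 4.73. Endothelial markers had a median of -0.48 (Kdr 0.30, limma SE 0.16), and blood cell markers of 0.04 (Itgam -0.15, limma SE 0.14). Their other tested genes, named after their values were seen, were Cdh5 (-1.51), Tek (-0.90), Pecam1 (-0.06), Csf1r (0.04) and Lyz2 (3.24). Of the 3 blood cell genes only Lyz2 was called higher by limma, beside 2.86% of all features. Pluripotency markers had a median of -0.14 (Dppa5a -0.22, limma SE 0.25), with medians of -0.42 within siErbB4 and 0.29 within siScr. The part of these cell types in the heat shock differences was not tested, and in bulk RNA fewer cells of a type and less RNA per cell cannot be told apart.

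Between transfections the cardiomyocyte markers had a median of -0.06, the fibroblast markers of -0.45, the smooth muscle markers of -0.19 and the endoderm markers of 0.26. The endothelial markers had a median of -0.34, the blood cell markers of -0.19 and the pluripotency markers of 0.39. None of their genes was called by limma. Between the replicate 1 arrays the medians were -0.72 (fibroblast), -0.55 (endothelial), 0.57 (pluripotency) and -0.01 (cardiomyocyte). Between the replicate 2 arrays they were -0.09, -0.14, 0.11 and -0.12 in that order. Over the 4 arrays, the named genes outside the pathway whose centred log2 profile lay nearest to the mean profile of the muscle class were Trappc9 (root mean square distance 0.0024), Tomm6 (0.0071) and Uso1 (0.0075). For the inducible class they were Map3k15 (0.014), Birc7 (0.019) and Ikzf3 (0.020). These 3 were read by dim probes, with signals of 29.7 to 72.4, and the inducible profile is the mean of only 2 genes. Profiles over 4 arrays are short, the muscle profile itself spanned only -0.10 to 0.09, and the likeness is a description of these arrays.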

How the data were processed

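RNA of 4 samples was read on 1-colour Agilent arrays, 2 siErbB4 and 2 siScr, grouped by title and transfection label. The deposited intensity values are processed signals that, per the submitters' processing notes, came from Agilent Feature Extraction (version 10.7.1.1), background-subtracted and detrended but not scaled between arrays, per the file headers. The deposited log2 table equalled log2 processed signal minus the 75th percentile of the array (largest difference 0.0033, r 1). The same scaling was computed here from the scanner values. The deposited flags of Feature Extraction, per the file headers, served as filters. Control spots (1377 of 44397) and outlier spots were left out, and spots of a probe were averaged. A probe was kept if it was well above background on both arrays of a group, and a gene took its brightest kept probe, which left 20918 features (14993 named). Genes were named through RefSeq accessions (27508 of 39429 probes, with names from GRCm38.p6). Differences were tested with limma 3.58.1 in R 4.3.3, siErbB4 minus siScr and, in a separate fit, replicate 2 minus replicate 1, each with 2 residual degrees of freedom and Benjamini-Hochberg adjustment over all features at 0.05. The limma fit was also run on simulated data with planted differences, which it recovered in size on average. The simulated arrays had independent noise, so that run does not cover the shared deviations of same-numbered samples. Named pathway genes were the called genes of each list or, where none was called, the gene with the lowest p in each comparison, and named markers the brightest of each list, with any gene outside this rule marked as such. The genes, classes and lists were chosen with earlier results of these data known. Alternatives were quantile normalization, normexp background correction (offset 50), no filter, the mean of probes, a replicate block or transfection term, and leaving out each array.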

Additional observations from a re-analysis of the deposited data

Results flagged for a closer look

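The difference between replicate numbers had opposite signs within siErbB4 and within siScr at 4 of the 9 measured genes, beside 29.7% of all features. The gap between the 2 transfections (siErbB4 minus siScr, log2) was 0.62 at Hspa1a, the inducible HSP70 gene, with 0.61 within siErbB4 and -0.0095 within siScr. It was 0.31 at Hspb8, with 0.02 within siErbB4 and -0.29 within siScr. It was 0.24 at Hsph1, with 0.15 within siErbB4 and -0.09 within siScr, and -0.24 at Bag3, with -0.16 within siErbB4 and 0.07 within siScr. Each value rests on 1 array against 1, and the difference between the transfections was not tested.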

How the results depend on the processing

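Between siErbB4 and siScr, 0 features were called by limma under every alternative tried, with 182 to 1567 at an unadjusted p under 0.05. The replicate block left 0 called, with 1567 features at an unadjusted limma p under 0.05, against 375 without the block. The deviations of same-numbered samples correlated at 0.678 over features. Same-numbered samples also lay next to each other on the slide, and the labels do not say what else they shared. Between replicate numbers the count of 1079 became 1885 with normexp, 0 without the filter on dim probes, and 0 to 1551 with 1 array left out, and the cause was not tested. Synpo2 was no longer called without the filter (adjusted limma p 0.121), with the mean of probes or without siErbB4 replicate 2, siScr replicate 1 or siScr replicate 2, Hspb2 was called with normexp, and the replicate difference of Hsf4 was -0.0046 with normexp. The adjusted limma p of the 9 heat shock genes stayed between 0.645 and 1.00 for transfection and between 0.112 and 0.999 for replicate number over these alternatives. Signs between transfections turned with quantile normalization at Hspb1 (0.063), Cryab (0.030) and Hspa8 (0.0078), and at Hsph1 with normexp (0.0075) and the mean of probes (0.0036). The replicate difference of Hspb1 turned with quantile normalization (-0.026) and normexp (-0.037). With 1 array left out, transfection differences spanned -0.050 to 0.11 (Bag3), -0.13 to 0.052 (Cryab), -0.34 to 0.27 (Hspa1a), -0.21 to 0.091 (Hspa8), -0.074 to 0.032 (Hspb1), -0.26 to 0.037 (Hspb7), -0.095 to 0.057 (Hsph1) and -0.040 to 0.54 (Hsf2). Replicate differences spanned -0.12 to 0.031 (Bag3), -0.34 to 0.066 (Hspb8) and -0.037 to 0.10 (Hsph1). The 4 arrays limit every interval given.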
